A study of Homo sapiens with 2 samples.

Results

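The mitochondrial genome encodes 7 subunits of respiratory complex I, listed in the count table as ND1, ND2, ND3, ND4, ND4L, ND5 and ND6. Members were taken by symbol alone, and all 7 were found among the 54261 features of the table and passed the filter on low values. They were followed in RKO cells, a human colorectal adenocarcinoma line. The control library is from cells given control siRNA (siNC, genotype labelled WT), and the other is from cells given siRNA against HNRNPM (siHNRNPM, genotype labelled HNRNPM knockdown). HNRNPM is a nuclear hnRNP protein that binds pre-mRNA and influences splicing. All cells were grown in DMEM with fetal bovine serum, and neither the siRNA sequences nor the time after transfection are known here. With 1 RNA-seq library in each group no test of the difference was possible, and every interval below is a 95% counting interval that leaves out variation between cultures.

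Complex I, or NADH:ubiquinone oxidoreductase, passes electrons from NADH to ubiquinone and pumps protons across the inner mitochondrial membrane. The mitochondrially encoded subunits form the core of its membrane arm, while the nucleus encodes the core of the matrix arm and all accessory subunits. ND1, ND3, ND6 and ND4L lie where the arms meet and along the start of the proton path, and ND2, ND4 and ND5 are the antiporter-like pumping subunits. Their mRNAs are cut from long polycistronic transcripts of the circular genome, largely at the transfer RNAs between them. ND6 is the only mRNA read from the light strand, and in human cells it carries no stable poly(A) tail, unlike the mRNAs read from the heavy strand.

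Reads in genes numbered 13056118 for siHNRNPM and 19931360 for control, of which mitochondrial genes took 4.58% and 4.45%. HNRNPM was at 79.6 reads per 1000000 reads in genes (CPM) against 144 CPM, or 55.2% of the control level (51.3% to 59.2%), lower in the library labelled as knockdown. Of the epithelial and colorectal markers, KRT8, KRT18, EPCAM and CDX2 had 106 to 632 reads per library, whereas KRT19, CDH1 and VIL1 had 10 or fewer. The leukocyte and endothelial markers PTPRC, CD3E and PECAM1 had at most 2 reads. The fibroblast collagen genes COL1A1 and COL1A2 had 21 and 14 reads in the siHNRNPM library and 13 and 8 in the control library.

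The ends of the mRNAs differ in how their reading frames close, and this bears on which of them depend on added A residues for a stop codon. The last 24 bases of each annotated gene (GENCODE 29, GRCh38 mitochondrial chromosome, 5′ to 3′ in the sense of the mRNA) are shown, with the bases of the final, complete or incomplete codon in capitals. Positions are chrM:4239-4262 (ND1), chrM:5488-5511 (ND2), chrM:10381-10404 (ND3), chrM:10743-10766 (ND4L), chrM:12114-12137 (ND4) and chrM:14125-14148 (ND5) on the plus strand, and chrM:14149-14172 on the minus strand (ND6).
ND1: ctccagcattccccctcaaaccTA
ND2: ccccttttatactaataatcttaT
ND3: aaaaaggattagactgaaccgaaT
ND4L: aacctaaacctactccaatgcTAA
ND4: acatcattaccgggttttcctctT
ND5: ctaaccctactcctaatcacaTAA
ND6: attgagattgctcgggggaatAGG
ND1 ends on TA and ND2, ND3 and ND4 end on a single T, so these 4 frames close only when A residues are added to the RNA. ND4L and ND5 end on TAA, and ND6 ends on AGG. ND6 also stands apart in base composition, with 35.6% G and 7.05% C in its sense strand. The other members had 9.50% to 12.1% G and 29.5% to 36.0% C.

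Genes that overlap or have near-identical copies can lose or share reads, with the read counter, its use of strand and its handling of multi-mapped reads not given in the sources used here. ND4L and ND4 are carried on 1 bicistronic mRNA and their frames overlap by 7 bases, in capitals in the last 30 bases of ND4L (chrM:10737-10766) and the first 30 of ND4 (chrM:10760-10789), both on the plus strand.
ND4L: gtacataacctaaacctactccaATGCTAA
ND4: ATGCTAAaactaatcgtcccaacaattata
A read over both genes can be dropped or given to either. ND5 and ND6 abut with 0 bases between them on opposite strands, so without strand their antisense transcripts cannot be told apart from the mRNAs.

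Nuclear insertions of mitochondrial DNA are the other source of shared reads. The table listed 219 nuclear copies of the 7 genes, 22 of them with a read and 3 of them reaching 1 CPM in either library. MTND1P23 (chromosome 1, 629062 to 629433, plus strand) matches bases 605 to 956 of ND1 with 99.1% identity. MTND2P28 (chromosome 1, 629640 to 630683, plus strand) matches all 1042 bases of ND2 with 98.4% identity, with 17 differing bases and an identical stretch of 266 bases. MTND4P12, on chromosome 5, matches ND4 with 95.8% identity. A stretch of 30 bases of ND2 (chrM:5470-5499) is set beside the same stretch of its copy (chr1:630640-630669), both on the plus strand of GRCh38. It was picked for having the most differences, so it is less alike than the gene as a whole. The differing bases are in capitals.
ND2: cGctActcctacctatctccccttttatAc
MTND2P28: cActGctcctacctatctccccttttatGc
Copies took 6.76% of the combined ND1 reads in the siHNRNPM library and 7.47% in the control library. For ND2 these shares were 5.48% and 4.94%. For each of the other 5 members the copies took at most 0.0822% in either library.

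Levels between genes were compared as RPKM, that is CPM from TMM-scaled library totals divided by gene length in kilobases. The order of the 7 members was the same in both libraries. ND4, at chrM 10760 to 12137, had the most reads per length, with 5875.0 in the siHNRNPM library and 5939 in the control library. ND4L (10470 to 10766) followed with 3260.05 and 3104, although both frames lie on the same mRNA. Per length, ND4L was thus read at 0.555 of ND4 in the siHNRNPM library and 0.523 in the control library. ND5 (12337 to 14148) had 1715 and 1495, and ND2 (4470 to 5511) had 1331 and 1237. ND3 (10059 to 10404) had 1214 and 942, and ND1 (3307 to 4262), the first mRNA after the ribosomal RNAs, had 979 and 734. ND6 (14149 to 14673, minus strand) was lowest, with 708 and 514. All neighbours in this order differed beyond counting error in both libraries, the closest being ND2 over ND3 in the siHNRNPM library at 1.10-fold (1.06 to 1.13). Because ND4L and ND4 differed by this measure though on 1 mRNA, the order of reads per length need not be that of mRNA levels.

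**Figure D1:**
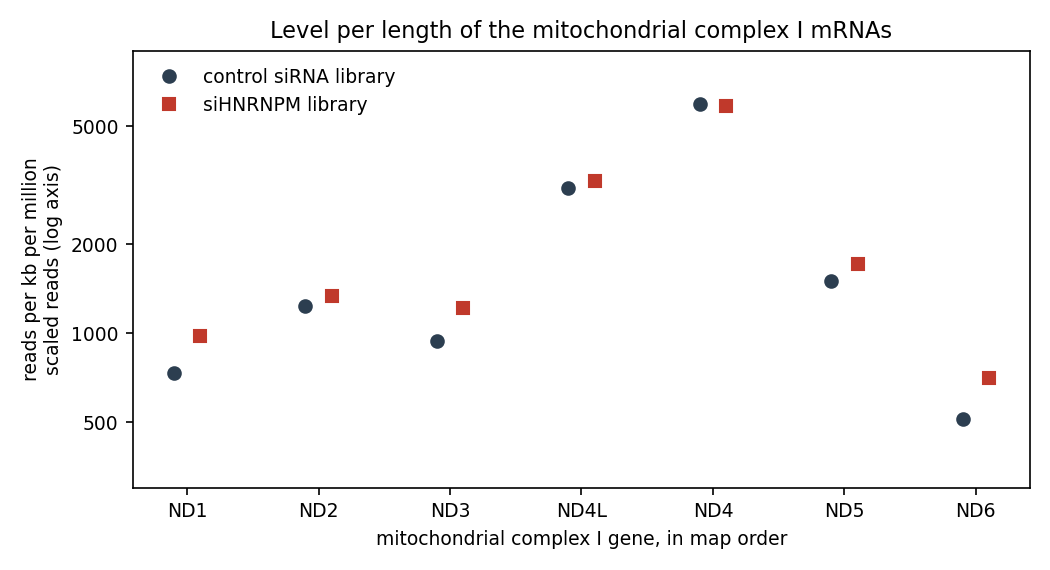
Level of each mitochondrial complex I mRNA on a log axis (CPM per kilobase of gene), with circles for the control siRNA library and squares for the siHNRNPM library, 1 library each. ND4 leads at 5939 in the control library and 5875.0 in the siHNRNPM library. ND6 is lowest, at 514 in the control library and 708 in the siHNRNPM library. The symbols lie farthest apart for ND6, ND1 and ND3.

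The range of levels was narrower in the siHNRNPM library. From ND4 down to ND6 it spanned 8.30-fold there and 11.6-fold in the control library. The top of the range was nearly level between the libraries while the low members were higher in the siHNRNPM library. Differences between the libraries are given below as the log2 ratio of CPM, siHNRNPM over control. "Higher" and "lower" mean that the counting interval excludes a ratio of 1.

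Among the subunits near the junction of the arms, ND6, ND1 and ND3 had the highest ratios of the 7. ND6 had 4864 reads in the siHNRNPM library and 5366 in the control library, or 372 and 270 CPM. It was 1.38-fold higher (1.32 to 1.43) in the siHNRNPM library, a log2 ratio of 0.46 (0.41 to 0.52). Strand use is not given, so reads from transcripts antisense to ND6 may be among those counted. ND1, which lines the ubiquinone-binding channel, had 12249 and 13956 reads, or 936 and 702 CPM. It was 1.33-fold higher (1.30 to 1.37), a log2 ratio of 0.42 (0.38 to 0.45). With the reads of its nuclear copies added, an alternative chosen after seeing the data, the ratio of ND1 was 0.40 (0.37 to 0.44). ND3, whose matrix loop moves when the enzyme switches between its active and dormant forms, had 5496 and 6481 reads, or 420 and 326 CPM. It was 1.29-fold higher (1.24 to 1.34), a log2 ratio of 0.37 (0.31 to 0.42). Set against each other by ratios of ratios, in pairs added after seeing the data, ND6 stood above ND3 by 1.07-fold (1.01 to 1.13). ND6 over ND1, at 1.03 (0.987 to 1.08), and ND1 over ND3, at 1.03 (0.991 to 1.08), were not separated by counting error. ND4L was close to level, with 12672 and 18332 reads, or 968 and 922 CPM. It was 1.05-fold higher (1.03 to 1.07), a log2 ratio of 0.07 (0.04 to 0.10).

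The antiporter-like subunits ND5, ND2 and ND4 carried most of the complex I reads, and the ratio of each lay below those of ND6, ND1 and ND3. ND5, at the far end of the membrane arm, had 40681 and 53847 reads, or 3108 and 2708 CPM. It was 1.15-fold higher (1.13 to 1.16), a log2 ratio of 0.20 (0.18 to 0.22). ND2 had 18146 and 25627 reads, or 1386 and 1289 CPM, and was 1.08-fold higher (1.06 to 1.10), a log2 ratio of 0.11. Adding the reads of its nuclear copies, likewise chosen after seeing the data, left ND2 at 0.11 (0.09 to 0.14). ND4 had 105955 and 162718 reads, or 8096 and 8184 CPM. Its level in the siHNRNPM library was 98.9% of control (98.2% to 99.7%), a log2 ratio of -0.016 (-0.027 to -0.004). That of ND4 is the only ratio of the 7 whose sign depended on the scaling, at 0.017 (0.005 to 0.028) with upper-quartile scaling. With total-read scaling its interval spanned 0, from -0.020 to 0.003.

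**Figure D2:**
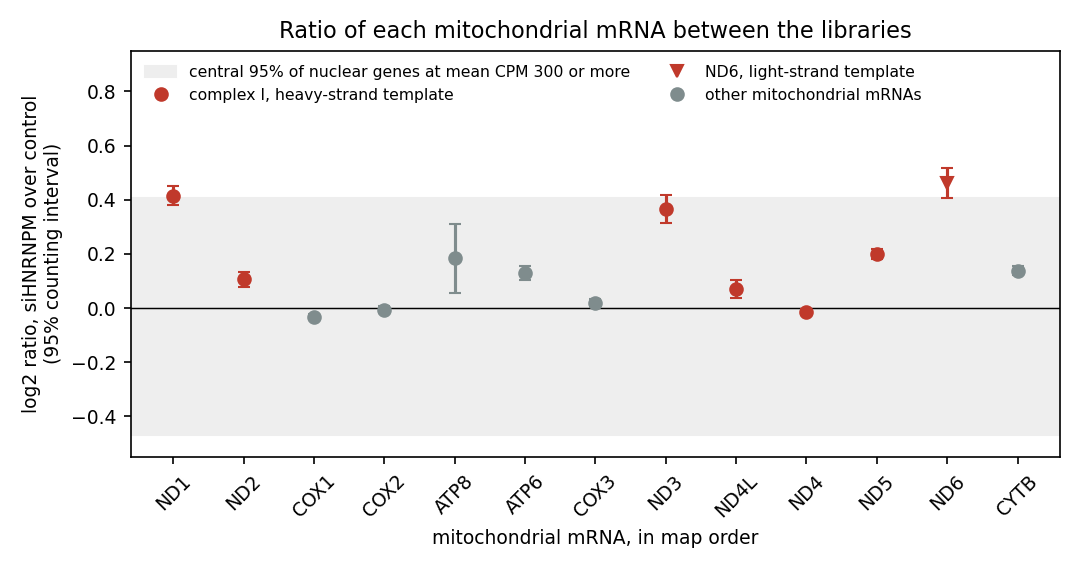
Log2 ratio of the siHNRNPM over the control library for the 13 mitochondrial mRNAs in map order, with 95% counting intervals. Red marks the complex I mRNAs, the triangle marks ND6, and the grey band is the central 95% (-0.47 to 0.41) of 470 abundant nuclear genes. ND6 at 0.46 and ND1 at 0.42 lie just above the band, ND3 at 0.37 near its upper edge, and ND4 near 0.

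In all, 6 of the 7 members were higher, 1 was lower and none differed 2-fold. Read against the 12925 measured genes, those reaching 1 CPM in at least 1 library, 22.0% were higher and 26.1% lower, and 2.45% and 1.49% were at least 2-fold higher and lower. Counting intervals narrow with depth, so the 470 nuclear genes whose mean reached 300 CPM are the nearer comparison, since the least-read member, ND6, had a mean CPM of 321. Of those, 45.1% were higher and 37.4% lower, with 0.213% and 0.0% at least 2-fold higher and lower. These shares are still not matched in depth to the most-read members. Only 2 nuclear protein-coding genes had a mean CPM within 2-fold of that of ND4, and 38 within 2-fold of that of ND5. The median log2 ratio was 0.20 over the 7 members, -0.01 over all measured genes and 0.02 over the abundant nuclear genes. Of the 470 abundant nuclear genes, 10 had a higher ratio than ND6, 12 a higher ratio than ND1 and 15 a higher ratio than ND3, against 78 for ND5, 159 for ND2, 188 for ND4L and 265 for ND4.

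Summed over the 7 members, the difference was small, and ND4 held more reads than the other 6 together. The sum was 200063 reads in the siHNRNPM library and 286327 in the control library, a 1.06-fold higher level and a log2 ratio of 0.09 (0.08 to 0.09). Without ND4L and ND4 the other 5 members were 1.18-fold higher (log2 ratio 0.23, 0.22 to 0.25). ND4L and ND4 together were level, at -0.01 (-0.02 to 0.004).

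Shares within a library do not depend on how the libraries are scaled to each other. ND4 took 53.0% of complex I reads in the siHNRNPM library and 56.8% in the control library. The share of ND5 was 20.3% against 18.8%, and that of ND1 was 6.12% (6.02% to 6.23%) against 4.87% (4.80% to 4.95%). ND3 took 2.75% against 2.26% and ND6 2.43% against 1.87%. ND2, at 9.07% and 8.95%, and ND4L, at 6.33% and 6.40%, had overlapping intervals. Thus ND4 made up a smaller part of the complex I reads in the siHNRNPM library, and ND1, ND3, ND5 and ND6 a larger part.

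**Figure D3:**
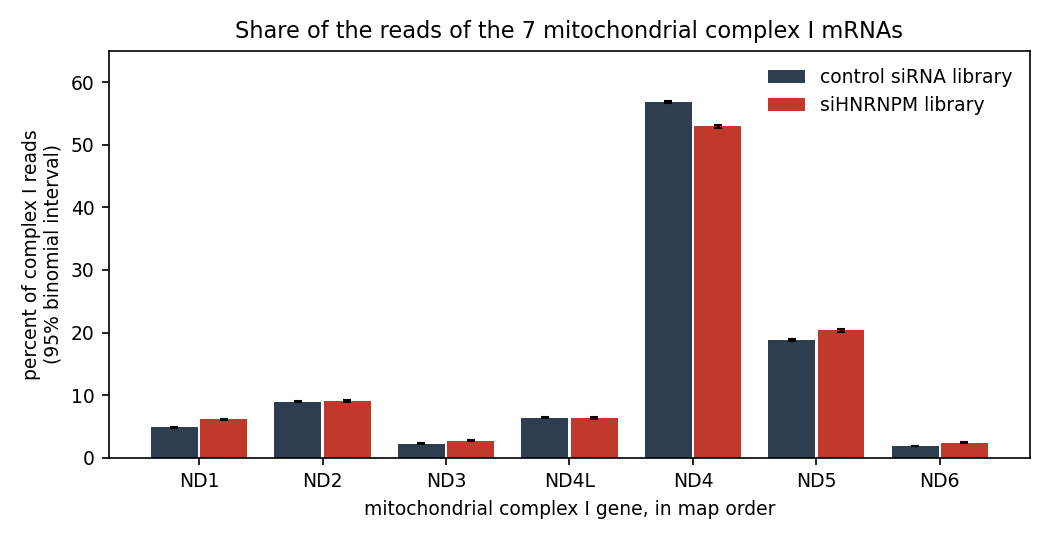
Percent of the reads of the 7 mitochondrial complex I mRNAs taken by each, with 95% binomial intervals, for the control siRNA library (dark bars) and the siHNRNPM library (red bars). ND4 is at 56.8% in the control library and 53.0% in the siHNRNPM library, and ND5 at 18.8% and 20.3%.

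Neighbouring genes did not keep the same proportions in both libraries, and this held for pairs on the same strand. ND1 to ND2 stood at 0.675 by reads in the siHNRNPM library and 0.545 in the control library, a ratio of these ratios of 1.24 (1.20 to 1.28). ND6, on the other strand and so from another primary transcript, to the abutting ND5 stood at 0.120 and 0.0997. That is a ratio of 1.20 (1.15 to 1.25). ND3 to its upstream neighbour COX3, a cytochrome c oxidase subunit gene, stood at 0.0904 and 0.0711, a ratio of 1.27 (1.22 to 1.32). ND3 to the next mRNA downstream, ND4L, a pair added after seeing the data, also differed, by 1.23 (1.18 to 1.28). Of these 5 pairs the one on 1 mRNA differed least, with ND4L to ND4 at 0.120 and 0.113, a ratio of 1.06 (1.04 to 1.09).

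The other mitochondrial mRNAs gave the frame for these values. The complex I genes took 33.4% (33.3% to 33.6%) of the reads of the 13 mitochondrial mRNAs in the siHNRNPM library and 32.3% (32.2% to 32.4%) in the control library. The complex IV genes COX1, COX2 and COX3 took 54.2% and 56.2%. COX1 had a log2 ratio of -0.03 (-0.04 to -0.02), COX2 -0.01 (-0.02 to 0.01) and COX3 0.02 (0.01 to 0.03). CYTB, encoding cytochrome b of complex III, had 0.14 (0.12 to 0.16), and the ATP synthase genes ATP6 and ATP8 had 0.13 (0.11 to 0.15) and 0.18 (0.06 to 0.31). ND6, ND1 and ND3 had intervals wholly above those of these 6 mRNAs, with no overlap by counting error. ATP8, whose frame overlaps that of ATP6, came closest, and had only 876 and 1172 reads.

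Across genes, the ratio ran against the level. Over the 7 complex I mRNAs, Spearman's rho between the log2 ratio and the mean log2 level per length was -0.96 (Pearson's r -0.91). Over all 13 mitochondrial mRNAs it was -0.87 (r -0.79), and over the 6 that are not of complex I -0.89 (r -0.88). These are descriptions, since the genes share both libraries, the ratio and the level come from the same reads, and genes are not independent replicates. Reads per length also need not give the mRNA level of short or overlapping genes. ATP8, of 207 bases, had 323 in the siHNRNPM library and 285 in the control library. ATP6, whose frame overlaps it, had 2612 and 2388. ND2 and ND5 are the only pair of neighbours by level within complex I that broke the order. Gene length gave a weaker relation, with rho -0.21 over the 7. Among the 470 abundant nuclear genes, where the level was taken as CPM and not per length, rho was 0.21.

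**Figure D4:**
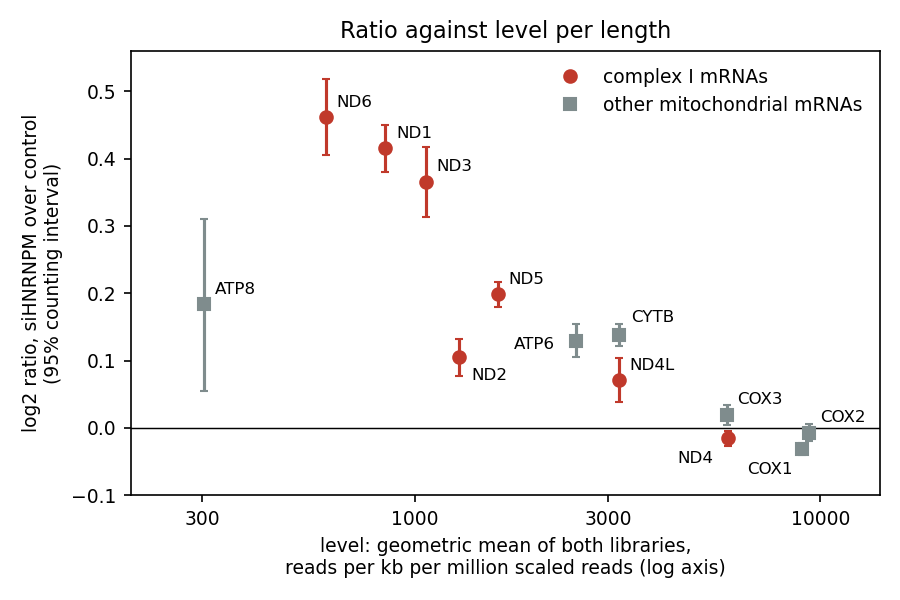
Log2 ratio with its 95% counting interval against the level per length (geometric mean of both libraries, log axis) for the 7 complex I mRNAs (circles) and the other 6 mitochondrial mRNAs (squares). The ratio is highest for ND6, ND1 and ND3 on the left, apart from ATP8 at 0.18, and near 0 for ND4 and the COX genes on the right.

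The mitochondrial RNAs that are not mRNAs were hardly read. RNR1 and RNR2, the ribosomal RNAs encoded upstream of ND1, had 15 and 64 reads in the siHNRNPM library and 41 and 125 in the control library. Whether rRNA was removed from the RNA or from the counts is not given in the sources used here, so these reads do not give the level of rRNA in the cells. Each rRNA alone had an interval that spanned a ratio of 1, but their summed 79 and 166 reads gave a log2 ratio of -0.47 (-0.87 to -0.07), opposite in sign to ND1. The ratio of ND1 to RNR2 was 1.71-fold higher (1.27 to 2.32) in the siHNRNPM library. Of 22 transfer RNA genes, 3 were measured, all transcribed from the light strand like ND6. TRNE, next to ND6, had 16 and 21 reads and a log2 ratio of 0.21 (-0.82 to 1.22). TRNP, which the light-strand transcript reaches before ND6, had 165 and 293 reads and -0.23 (-0.51 to 0.06), and TRNQ had 66 and 99 reads and 0.02 (-0.45 to 0.48). None of the 3 had an interval that excluded a ratio of 1, and the interval of TRNP lay wholly below that of ND6. With strand use and the selection of RNA not given, these reads do not give the level of the transfer RNAs or of the light-strand transcript.

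Nuclear genes of complex I were measured in the same libraries. Of 36 measured core and accessory subunit genes (37 listed), 18 were higher, 3 were lower and 15 had intervals that included 1. Over all measured genes 22.0% were higher and 26.1% lower. Those shares are not matched in depth, since the 36 genes had a median of 50.0 CPM (siHNRNPM) and 48.5 CPM (control). The median log2 ratio of the 36 was 0.11. By summed reads they stood at 0.11 (0.09 to 0.13), with 30596 and 43108 reads. Some of these genes were known to be slightly higher from an earlier look at these data, so their direction is no independent support.

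Of the 7 nuclear core subunits, 4 were higher and 3 spanned, beside 22.0% higher and 26.1% lower over all measured genes. In the ubiquinone-reducing module next to ND1, NDUFS3 had a log2 ratio of 0.28 (0.13 to 0.43) and NDUFS8 0.24 (0.08 to 0.40), while NDUFS7 had -0.02 (-0.19 to 0.15). In the NADH-oxidising module, the flavin-binding subunit gene NDUFV1 had 0.09 (0.003 to 0.17) and NDUFV2 -0.02 (-0.10 to 0.07). NDUFS1 had only 28 and 24 reads, with 0.83 (-0.01 to 1.68).

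Among the 29 measured accessory subunits, 14 were higher, 3 lower and 12 spanned, with a median of 0.11. The shares over all measured genes, not matched in depth, were 22.0% higher and 26.1% lower. NDUFB3 had 0.41 (0.28 to 0.55), NDUFS4 0.41 (0.24 to 0.58) and NDUFV3 0.37 (0.17 to 0.57), while NDUFB2 had -0.38 (-0.55 to -0.23). NDUFS4 is known as a subunit that stabilises the NADH-oxidising module, and NDUFB2 and NDUFB3 belong to the distal membrane arm. Of 18 assembly factors, 6 were higher, 2 lower and 10 spanned, beside 22.0% higher and 26.1% lower over all measured genes, with a median of 0.10. NDUFAF3, which helps build the ubiquinone module with ND1, had 0.34 (0.12 to 0.55), and its partner NDUFAF4 had -0.49 (-0.80 to -0.19). NDUFAF7, an arginine methyltransferase, had 0.29 (0.10 to 0.47), and TMEM186, an assembly factor of the membrane arm, had 0.27 (0.01 to 0.53).

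**Figure D5:**
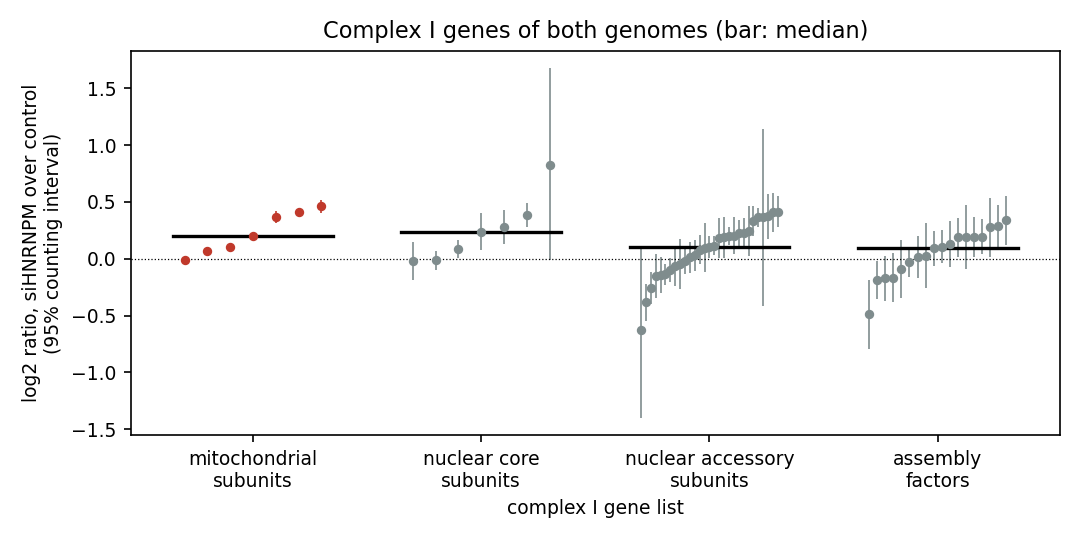
Log2 ratio of every measured complex I gene with its 95% counting interval, sorted within each list, and the median of each list as a bar. Medians are 0.20 for the mitochondrial subunits, 0.24 for the nuclear core, 0.11 for the accessory subunits and 0.10 for the assembly factors, and the intervals are widest for genes with few reads such as NDUFS1.

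The genes that make and keep mitochondrial RNA differed little as lists. Of 10 measured genes of mitochondrial DNA transcription and replication, 2 were higher, 2 lower and 6 spanned, near the 22.0% higher and 26.1% lower over all measured genes, with a median of 0.03. POLRMT, the mitochondrial RNA polymerase gene, had 0.12 (0.0003 to 0.23). TFAM, which packages mitochondrial DNA and starts transcription, had -0.23 (-0.35 to -0.11). TWNK, the replicative helicase gene, listed as C10orf2, had -0.22 (-0.44 to -0.01), and the single-strand binding protein gene SSBP1 had 0.42 (0.25 to 0.59). Of 17 genes of mitochondrial RNA processing and stability, 5 were higher, 1 lower and 11 spanned, beside the same shares over all measured genes, with a median of 0.05. FASTK, whose mitochondrial isoform is known to be needed for ND6 mRNA, had 0.26 (0.13 to 0.40), and FASTKD2 had 0.19 (0.08 to 0.29). REXO2, an oligoribonuclease gene, had 0.25 (0.14 to 0.35). GRSF1, encoding an RNA-binding protein of mitochondrial RNA granules that binds the light-strand ND6 transcript, had -0.16 (-0.24 to -0.08). Whether any of these genes bears on the ND6, ND1 or ND3 ratios was not tested.

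For each member, the nuclear protein-coding gene of like read number (mean CPM within 2-fold) with the nearest log2 ratio over the 2 libraries was named. ND6 lay nearest to RBM3 (0.46), an RNA-binding protein gene, with 22 of 1042 candidates at a higher ratio. ND1 lay nearest to TM4SF1 (0.44), with 6 of 228 higher, and ND3 to SRFBP1 (0.36), with 28 of 816 higher. ND5 lay nearest to STC1 (0.19), with 6 of 38 higher. ND2 paired with PSAP (0.11), ND4L with RPS3A (0.07) and ND4 with EEF1A1 (0.15), the last from only 2 candidates and 0.17 away. A likeness over 2 libraries says no more than that these ratios were close.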

How the data were processed

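The authors deposited raw counts of reads for each gene symbol, 1 column a library, not normalized. Columns were tied to libraries by title and groups taken from the treatment labels. HISAT2 2.0.4 and GRCh38 are named per the submitters' processing notes. The counter, the annotation, strand use and the selection of RNA are not given in the sources used here. Members and gene lists were chosen with earlier results of these data known.

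TMM factors (1.00 and 0.998) from edgeR 4.0.16, run in R 4.3.3, scaled the counts to CPM. A gene counted as measured from 1 CPM in either library. Intervals (95%) of log2 ratios are exact Clopper-Pearson limits on how a gene's reads divide between libraries. Ratios of ratios have Woolf intervals, and both kinds cover counting error only. Both take reads as independent molecules, which PCR copies are not, so the intervals may be too narrow. Sequences and positions came from GENCODE 29. RefSeq (GRCh38.p14) gave biotypes. Identity with nuclear copies came from local alignment in Biopython 1.88. The scripts were tested on simulated data. Named genes were HNRNPM, all mitochondrial mRNAs and rRNAs, the nuclear core subunits, up to 4 genes per other list with the largest absolute ratio whose interval excluded 1, and the nearest gene by ratio for each member. One gene under this rule is not reported here. The 3 measured nuclear copies and 3 measured transfer RNAs were named after their values were seen. Alternatives covered scaling (DESeq2 1.42.0 among them), the CPM filter, thinning, and leaving out members.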

Additional observations from a re-analysis of the deposited data

How the results depend on the processing

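The log2 ratios of ND6, ND1, ND3, ND5, ND2 and ND4L stayed above 0 under every scaling, the thinned control library and, for ND1 and ND2, the addition of nuclear copies, and 6 members were higher under each scaling except upper-quartile, with 7. ND4 turned from -0.016 to 0.017 with upper-quartile scaling. The count of lower members was 0 instead of 1 with total-read scaling, with upper-quartile scaling and with TMM over measured genes. Without ND4L and ND4 it was 0 by construction, since ND4 was the only lower member. The median log2 ratio, 0.199, was 0.231 with upper-quartile scaling, 0.163 when scaled to the 13 mitochondrial mRNAs, 0.152 without ND6 and 0.366 without ND4L and ND4. The ratio of summed reads, 0.086, was 0.118 with upper-quartile scaling, 0.101 with TMM over measured genes, 0.077 with DESeq2 size factors, 0.050 when scaled to the 13 mRNAs and 0.233 without ND4L and ND4. Without ND6, complex I took 32.6% and 31.7% of mitochondrial mRNA reads. Scaling to the 13 mRNAs changes what is measured, and leaving out members changes the set. Without a CPM filter 14.5% of genes were higher and 16.1% lower, and at a CPM of 5 or more 0.654% and 0.467% were at least 2-fold higher and lower. No paired analysis was possible because each group has 1 library. Depth limits the transfer and ribosomal RNAs, with at most 293 reads. Variation between cultures was not measured.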
